A study of Mus musculus with 14 samples.

Results

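The dual-specificity MAP kinase phosphatases Dusp1, Dusp2, Dusp4, Dusp5, Dusp6 and Dusp10 and the Sprouty family proteins Spry1, Spry2 and Spred1 were followed in repeatedly activated Th1 cells (Th1 rep cells) after inhibition of the microRNA miR-31. The 9 genes were taken through every probe set of the array that is annotated to only 1 of their symbols. This gave 18 probe sets out of 34945 with a single gene symbol and 45101 in all. Spred1 had 8 of them, Spry2 and Dusp10 had 2 each, and the other genes had 1 each. The 13 probe sets of the 9 genes that lay among the brightest 60% by their mean over all arrays were tested, and 1 probe set of Dusp10 and 4 of Spred1 were too dim.

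Naive CD4+CD62Lhi cells of OT-II mice, which carry a transgenic T cell receptor for an ovalbumin peptide, were polarized to Th1 with IL-12 and an antibody against IL-4, and the mice were 6 to 10 weeks old. The cells were restimulated with peptide and antigen presenting cells in rounds, and after the fourth round they received either Antagomir-31, an oligonucleotide that blocks miR-31, or the scrambled control Antagomir-SCR, each at 1 µM. All cells, treated and control, were then reactivated with plate-bound antibodies against CD3 and CD28 in the presence of IL-12, anti-IL-4 and IL-2, and total RNA was taken 36, 48 and 72 h after treatment. Affymetrix mouse genome arrays held 14 samples in all, with 2, 2 and 3 per treatment for 36, 48 and 72 h. No array stood for unstimulated or untreated cells. The labels do not say whether the samples of a group came from separate cultures or animals, so p-values speak only of how far these arrays varied, a spread that may be technical.

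Antigen receptor signals in T cells run through Ras and the kinases Raf, MEK and ERK, and in parallel through p38 and JNK. MAP kinases are switched on by phosphorylation of a threonine and a tyrosine, and dual-specificity phosphatases switch them off by removing both phosphates. Sprouty and Spred proteins act further upstream, on the activation of Ras and Raf. Several of these inhibitors are themselves transcribed in response to the pathway they restrain and form a negative feedback loop.

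MiR-31, the target of the antagomir, is encoded on the minus strand of chromosome 4 (chr4:88910614-88910635 for the 5p arm and chr4:88910577-88910599 for the 3p arm, GRCm38.p6). The mature RefSeq sequences are shown because the treatment was directed against this microRNA, and the capitals mark the seed, bases 2 to 8.

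mmu-miR-31-5p: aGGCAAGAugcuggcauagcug
mmu-miR-31-3p: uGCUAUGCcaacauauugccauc

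Each seed was found in 1 mature mouse microRNA of the RefSeq table. Dusp1 was the 1 gene of the 9 in the list of putative miR-31 targets that the study drew up.

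The arrays were those of T cells. Cd3e, a chain of the T cell receptor complex, lay between 372 and 707 on the linear RMA scale, Tbx21, the Th1 transcription factor, between 944 and 1885, and Ifng, the Th1 cytokine, between 8188 and 17166. The summed level of the 10 T cell and Th1 markers lay between 30863 and 31668 at 36 h, between 28469 and 28965 at 48 h and between 22694 and 23939 at 72 h. The 3 markers of B cells summed to between 40.2 and 55.8, 4 of macrophages and monocytes to between 159 and 194, 3 of dendritic cells to between 50 and 84.4, 3 of CD8 T and NK cells to between 55.1 and 83.6, and 3 of neutrophils and erythroid cells to between 27.8 and 37.9. None of these markers was at 0, which RMA does not give. Cd79a of B cells (12.9 to 18.5) and Itgax of dendritic cells (12.8 to 18.4) lay below the array medians. So did Adgre1 of macrophages (13.6 to 16.7) and Ncr1 of NK cells (14.2 to 19.65). Cd14 (48.7 to 68.4), Csf1r (63.7 to 75.3) and Lyz2 (28.4 to 43.5) of macrophages and monocytes lay above those of their time or close to them. Cd8a of CD8 T cells (26.9 to 37.95) did too. Flt3 of dendritic cells ran from 15.8 to 41.2 and Cd8b1 of CD8 T cells from 12.3 to 29.3. Those medians, 23.4 to 23.8 for the arrays of 36 h, were 21.8 to 22.1 for those of 48 h and 27.9 to 28.4 for those of 72 h, that is, close within a time and apart between times. Time differences were therefore computed after quantile normalization of all 14 arrays and are given as deposited as well.

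The phosphatases directed at ERK, Dusp6 and Dusp5, were bright at 36 and 48 h. Dusp6, the cytoplasmic phosphatase of ERK, gave intensities of 1498 and 1382 with Antagomir-31 and 1624 and 1587 with Antagomir-SCR at 36 h. At 48 h it read 1361 and 1229 with Antagomir-31 and 1266 and 1433 with Antagomir-SCR. At 72 h the values were 108, 124 and 119.5 with Antagomir-31 and 113, 124 and 126 with Antagomir-SCR. Thus every array of 72 h lay far below every array of 36 and 48 h, whichever antagomir the cells had received.

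Dusp5, the nuclear counterpart that acts on ERK alone, declined in smaller steps. Its intensities were 1435 and 1358 with Antagomir-31 and 1466 and 1439 with Antagomir-SCR at 36 h. At 48 h they were 1251 and 1118 with Antagomir-31 and 976 and 1129 with Antagomir-SCR. The arrays of 72 h read 596, 540.5 and 586 with Antagomir-31 and 561, 528 and 548 with Antagomir-SCR. The 3 times did not overlap, and the treatments overlapped at 72 h.

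Dusp4, Dusp2 and Dusp1 are inducible nuclear phosphatases with a wider range of substrates among ERK, p38 and JNK. Dusp4 read 1010.1 and 957 with Antagomir-31 and 901 and 859.7 with Antagomir-SCR at 36 h, and 914 and 916 against 922 and 963 at 48 h. At 72 h it stood at 120.3, 123 and 131 with Antagomir-31 and at 126, 151 and 122 with Antagomir-SCR. Its levels at 36 and 48 h overlapped, while all 6 arrays of 72 h were far lower, which is the course seen for Dusp6.

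Dusp2, known as a phosphatase of activated lymphocytes, kept a larger part of its signal. Intensities were 1903 and 1829.6 with Antagomir-31 and 1937 and 1889 with Antagomir-SCR at 36 h. At 48 h they came to 1478 and 1406 with Antagomir-31 and 1556 and 1549 with Antagomir-SCR. The arrays of 72 h gave 891, 939 and 879.6 with Antagomir-31 and 862, 922 and 871 with Antagomir-SCR. The times followed each other without overlap.

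Dusp1, the immediate early phosphatase and a putative miR-31 target, was the flattest of these genes. It read 152 and 151 with Antagomir-31 and 144 and 146 with Antagomir-SCR at 36 h, and 158 and 155 against 145 and 145 at 48 h. The 72 h arrays gave 105, 109 and 102 with Antagomir-31 and 113, 105 and 107 with Antagomir-SCR. Antagomir-31 arrays were the higher ones at 36 and 48 h by a few units, and the treatments overlapped at 72 h.

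Dusp10, which acts on p38 and JNK rather than on ERK, was dim and did not show this course. The brighter of its probe sets ran from 35.5 to 41.7 at 36 h, from 39.2 to 51.1 at 48 h and from 38.2 to 47.3 at 72 h as deposited, so that all 3 times overlapped. The other lay between 9.68 and 17.8 on the 14 arrays and was not tested.

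Both Sprouty genes declined from one time to the next. Spry1 gave 533 and 525 with Antagomir-31 and 576 and 507 with Antagomir-SCR at 36 h, and 343 and 340.02 against 339 and 372 at 48 h. At 72 h it stood at 103, 88.2 and 100.4 with Antagomir-31 and at 113, 112 and 94.3 with Antagomir-SCR. None of the 3 times overlapped with another.

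For Spry2 the brighter probe set read 276 and 291 with Antagomir-31 and 313 and 311 with Antagomir-SCR at 36 h, and 239 and 228 against 239.6 and 233 at 48 h. At 72 h the values were 87.7, 84.0 and 88.4 with Antagomir-31 and 93.1, 98.6 and 90.3 with Antagomir-SCR. This probe set separated the times completely. The dimmer probe set of Spry2 ran from 33.4 to 38.2 at 36 h, from 24.5 to 26.5 at 48 h and from 23.2 to 30.5 at 72 h, so that it separated 36 h only.

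Spred1, a membrane-bound inhibitor of Raf activation, was measured by 8 probe sets. The brightest gave 201 and 192 with Antagomir-31 and 195 and 206 with Antagomir-SCR at 36 h, and 146 and 129 against 143 and 135 at 48 h. At 72 h it read 76.5, 90.0 and 81.9 with Antagomir-31 and 76.6, 75.2 and 70.2 with Antagomir-SCR. The times were again separate. The 4 probe sets of Spred1 that were not tested lay between 6.60 and 24.9 on all arrays, below or near the array medians.

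**Figure D1:**
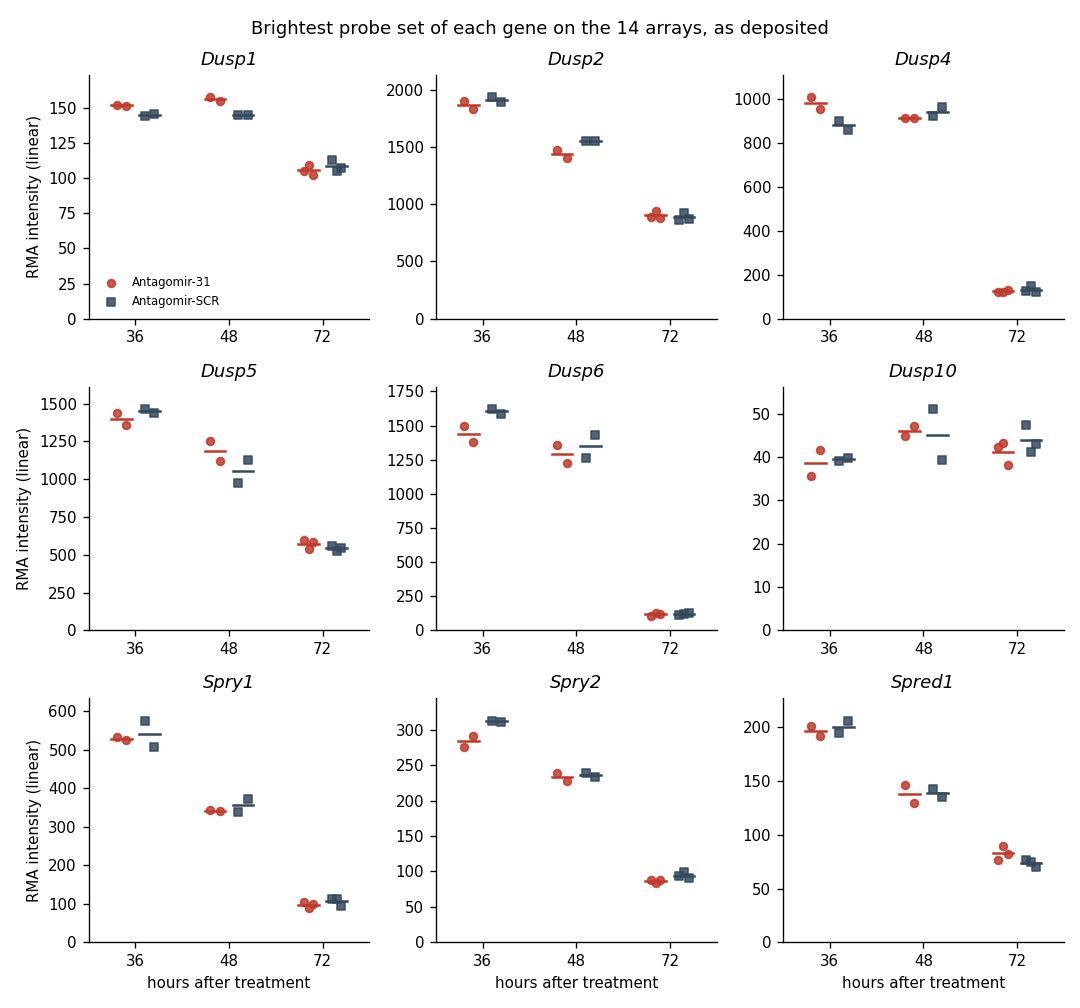
RMA intensity on a linear axis from 0 (y) against hours after treatment (x) for the brightest probe set of each of the 9 genes, 1 point per array and a bar at each group mean, with Antagomir-31 as circles and Antagomir-SCR as squares. Dusp6 and Dusp4 drop between 48 and 72 h to 126 or less and 151 or less, Dusp2, Dusp5, Spry1, Spry2 and Spred1 decline at both steps, and Dusp10 stays between 35.5 and 51.1.

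Between 48 and 72 h all 9 genes were lower in the mean of both treatments, Dusp6 and Dusp4 by the widest margin. Dusp6 fell by 3.80 on the log2 scale (SE 0.058, limma adjusted p = 3.6e-14), a 13.9-fold drop, and Dusp4 fell by 3.18 (SE 0.063, adjusted p = 4.21e-13), a 9.08-fold drop. The log2 differences were -2.13 (SE 0.064) for Spry1, -1.74 (SE 0.039) for Spry2, -1.26 (SE 0.051) for Dusp5 and -1.18 (SE 0.053) for the brightest probe set of Spred1. Those of Dusp2 and Dusp1 were -0.98 (SE 0.039) and -0.86 (SE 0.035), and all 6 of these genes were called with adjusted p of 7.42e-10 or less. Dusp10 had the smallest decrease among the brightest probe sets, -0.46 (SE 0.076, adjusted p = 0.000127).

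Counted by probe set, 13 of 13 were called lower at an adjusted p under 0.05. At 72 h Spred1 1423162_s_at (10.6 to 17.0) and 1460116_s_at (16.1 to 22.9) lay below the array medians. The former passed the filter on brightness through 36 and 48 h, so that the filter had a part in its count. The latter passed through 36 h only, as its mean at 48 h, 21.2, was already below the lowest mean kept, 21.5. The count of 13 of 13 has to be read against its background. Of the 20967 tested probe sets 74.7% were called, 35.1% lower and 39.6% higher. As deposited, 10 of 13 probe sets had every array of 72 h below every array of 48 h. On that scale the share over all tested probe sets was not computed, so nothing is read from this count. After quantile normalization all 13 lay wholly below, as did 28.7% of all tested probe sets (60.9% did not overlap in either direction). For Spred1 1460116_s_at that margin was narrow, with at most 20.46 at 72 h and at least 20.48 at 48 h. Size separated the genes more clearly than the call. A decrease of 1 or more on the log2 scale was seen in 3.67% of all tested probe sets, of 2 or more in 0.944% and of 3 or more in 0.286%. Dusp6 ranked 31 from the lowest of all tested probe sets and Dusp4 ranked 51, while Dusp1 ranked 1040 and Dusp10 2934. The median of the 13 was -1.18, and that of all tested probe sets was 0.025. In bulk RNA, fewer cells of a kind and less RNA per cell cannot be told apart.

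Of the 13 probe sets, 12 were called lower with the arrays of either treatment alone, and Spry2 1421656_at was not called with the Antagomir-SCR arrays alone (-0.17, limma adjusted p = 0.0953). With the Antagomir-SCR arrays alone the log2 difference of Dusp6 was -3.82 and with the Antagomir-31 arrays alone -3.78, and the corresponding values were -3.18 and -3.19 for Dusp4, -2.11 and -2.15 for Spry1 and -1.70 and -1.77 for Spry2. The summed T cell and Th1 markers were also lowest at 72 h, through Ifng, whose mean as deposited was 15329.6 with Antagomir-31 and 15650.4 with Antagomir-SCR at 48 h and 8382 and 8580.5 at 72 h. Cd3e, Cd4, Thy1 and Tbx21 had higher means at 72 h than at 48 h on that scale, and Twist1 had lower ones. Of the 10 markers, 7 were called higher and 2 lower as deposited, and 3 higher and 4 lower after quantile normalization. Beside these counts, 85.3% of all tested probe sets were called as deposited. After quantile normalization 39.6% were called higher and 35.1% lower. The actin probe sets at the 3′ end exceeded those at the 5′ end by 0.37 to 0.41 log2 units at 48 h and 0.21 to 0.27 at 72 h. A larger excess can stand for less intact RNA. The part of these markers and of RNA integrity in the decrease was not tested.

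Scaling mattered for the weakest members. As deposited, the median of all tested probe sets was 0.35 higher at 72 h than at 48 h, and 83.4% of the called probe sets were higher, against 53.0% after quantile normalization. On that scale 10 of 13 probe sets were still called lower in limma, where 14.2% of all tested probe sets were (85.3% called in all), with differences of -3.47 for Dusp6, -2.85 for Dusp4, -1.78 for Spry1, -1.38 for Spry2, -0.99 for Dusp5, -0.74 for Dusp2 and -0.49 for Dusp1. Dusp10 was no longer called (-0.096, SE 0.076, adjusted p = 0.249), nor was the dimmest tested probe set of Spred1, 1460116_s_at (-0.19, SE 0.13, adjusted p = 0.196). The dimmer probe set of Spry2, 1421656_at, turned from -0.25 (SE 0.066) to 0.090 (SE 0.068, adjusted p = 0.229). Since the arrays of each time may have been normalized apart, time and that normalization cannot be told apart.

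**Figure D2:**
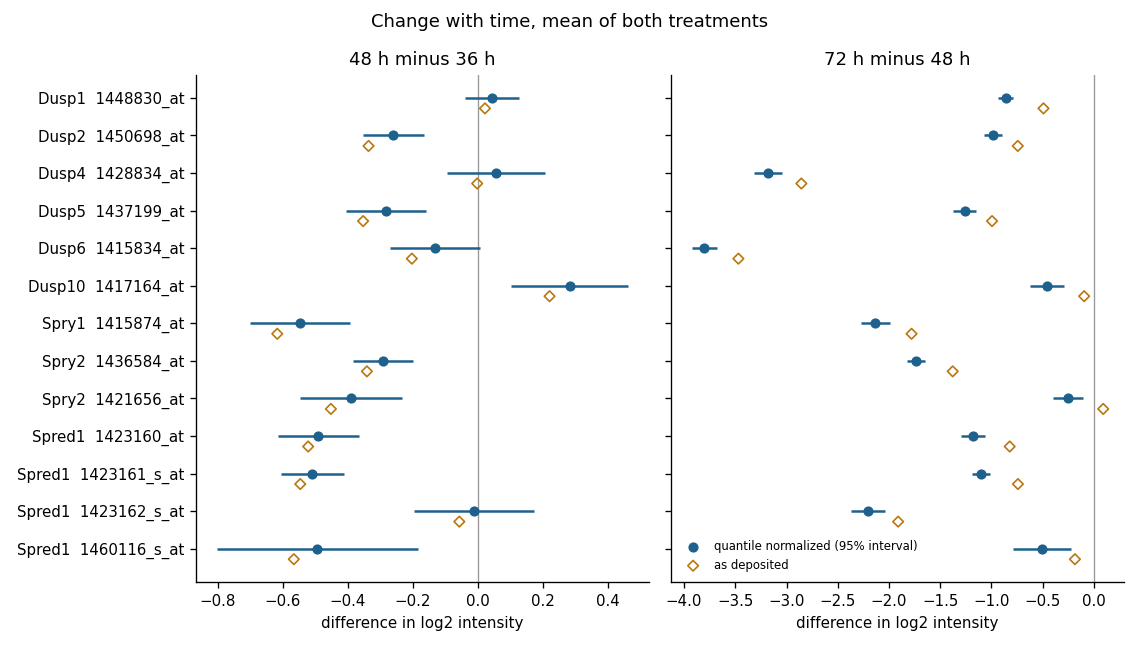
Difference in log2 intensity (x) for the 13 tested probe sets (y), 48 h minus 36 h on the left and 72 h minus 48 h on the right, as the mean of both treatments; filled circles with 95% intervals are quantile normalized values and open diamonds are values as deposited. In the right panel Dusp6 and Dusp4 lie lowest at -3.80 and -3.18, and only the diamond of Spry2 1421656_at, at 0.090, lies above 0.

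Between 36 and 48 h the changes were smaller and the genes parted. By their brightest probe sets Spry1, Spry2, Spred1, Dusp2 and Dusp5 fell, Dusp10 rose, and Dusp1, Dusp4 and Dusp6 did not pass the test. Spry1 fell by 0.55 (SE 0.070, limma adjusted p = 8.44e-05) and Spred1 fell by 0.49 at its brightest probe set (SE 0.058, adjusted p = 4.41e-05). Spry2 was at -0.29 (SE 0.043, adjusted p = 0.000215), Dusp5 at -0.28 (SE 0.056, adjusted p = 0.0017) and Dusp2 at -0.26 (SE 0.043, adjusted p = 0.000486). Dusp10 rose by 0.28 (SE 0.083, adjusted p = 0.0159). The differences of Dusp1 and Dusp4 were 0.043 (SE 0.038) and 0.055 (SE 0.069), and that of Dusp6 was -0.13 (SE 0.063, adjusted p = 0.11). Spred1 1423162_s_at, unlike the other tested probe sets of its gene, was at -0.012 (adjusted p = 0.917), and Spred2, a relative of Spred1 outside the 9 genes, was called higher (0.29, SE 0.043, adjusted p = 0.000227).

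In all, 8 of 13 probe sets were called lower and 1 higher, against 21.5% and 22% of all tested probe sets (43.5% called in all). The arrays of 48 h lay wholly below those of 36 h for 8 of 13, as for 19.8% of all tested probe sets (40.2% did not overlap in either direction). As deposited Dusp6 was called as well (-0.20, SE 0.062, adjusted p = 0.018), which made 9 of 13 lower against 30.8% of all tested probe sets (46.9% called in all). Each of these counts of lower probe sets includes Spred1 1460116_s_at. That probe set passed the filter on brightness through 36 h only, so that the filter had a part in the counts. The call of Dusp10 was lost without the first Antagomir-31 array of 36 h (0.22, adjusted p = 0.0673) and without the first Antagomir-SCR array of 48 h (0.18, adjusted p = 0.0634). With the Antagomir-31 arrays alone Dusp5 was not called (-0.17, adjusted p = 0.179), and with the Antagomir-SCR arrays alone it was (-0.40, adjusted p = 0.00965); Spry2 1421656_at was not called with the Antagomir-31 arrays alone (-0.33, adjusted p = 0.0512), nor Dusp10 with the Antagomir-SCR arrays alone (0.24, adjusted p = 0.18). The call of Spred1 1460116_s_at was lost without any of 4 arrays, namely Antagomir-31 replicate 1 and Antagomir-SCR replicate 2 of 36 h and Antagomir-31 replicate 2 and Antagomir-SCR replicate 1 of 48 h (adjusted p between 0.0532 and 0.0655), and with either treatment alone (adjusted p = 0.0954 and 0.0737). The contrasts of 48 h with 36 h and of 72 h with 48 h share the arrays of 48 h.

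Promoters of these genes are shown because most of the genes declined together. RefSeq held a promoter for 8 of the 9 genes, Dusp4 being the other, and 300 bases around each start, 250 before and 50 after, were searched on both strands for 6 motifs of factors that act downstream of ERK, p38 or calcium. These were the cyclic AMP response element (TGACGTCA), the AP-1 site (TGACTCA), an ETS site (CCGGAAGT), an EGR site (GCGGGGGCG), an NFAT site (TGGAAAA) and the CArG box of serum response factor; none of the first 5 lies within another. The 250 bases before the start are printed for Dusp6 (chr10:99262981-99263230, plus strand), which fell most, and for Dusp5 (chr19:53528895-53529144, plus strand), Dusp2 (chr2:127335909-127336158, plus strand) and Dusp1 (chr17:26508473-26508722, minus strand), in which a motif was found. Coordinates are those of GRCm38.p6, and capitals mark the motifs.

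Dusp6 promoter: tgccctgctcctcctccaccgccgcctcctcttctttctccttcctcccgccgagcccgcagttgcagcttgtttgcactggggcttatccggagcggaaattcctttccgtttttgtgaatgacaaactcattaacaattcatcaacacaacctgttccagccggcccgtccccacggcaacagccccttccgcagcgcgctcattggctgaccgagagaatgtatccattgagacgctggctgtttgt
Dusp5 promoter: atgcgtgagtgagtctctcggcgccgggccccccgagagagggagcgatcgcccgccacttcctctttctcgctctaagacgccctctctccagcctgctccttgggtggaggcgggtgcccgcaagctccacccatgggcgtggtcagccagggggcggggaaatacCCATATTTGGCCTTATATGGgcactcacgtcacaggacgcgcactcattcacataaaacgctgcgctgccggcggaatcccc
Dusp2 promoter: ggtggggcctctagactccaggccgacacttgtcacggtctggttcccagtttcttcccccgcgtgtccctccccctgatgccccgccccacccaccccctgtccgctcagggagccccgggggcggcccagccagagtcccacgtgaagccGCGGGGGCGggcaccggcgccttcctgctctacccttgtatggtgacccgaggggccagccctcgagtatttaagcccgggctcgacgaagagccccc
Dusp1 promoter: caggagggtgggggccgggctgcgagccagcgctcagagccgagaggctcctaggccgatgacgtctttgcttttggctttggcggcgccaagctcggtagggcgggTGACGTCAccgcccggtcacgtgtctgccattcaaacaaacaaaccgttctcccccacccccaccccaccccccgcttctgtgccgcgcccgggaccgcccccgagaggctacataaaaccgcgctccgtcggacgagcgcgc

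Dusp5 held a pair of adjoining CArG boxes that began 82 and 72 bases before the start, a motif present in 1.63% of 32851 mouse promoters. Dusp2 held the EGR site, 98 bases before the start, which 2.91% of promoters share, and Dusp1 held the cyclic AMP response element, 143 bases before the start, which 1.79% share. The AP-1 site (5.2% of promoters), the ETS site (3.89%) and the NFAT site (6.73%) were in none of the 8 windows, and the windows of Dusp6, Dusp10, Spry1, Spry2 and Spred1 held none of the 6 motifs. The GC content of the 8 windows ran from 57.3% to 72.3%, with a median of 52.7% over all promoters.

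Inhibition of miR-31 brought no called change in these genes. No probe set of the 9 genes was called between Antagomir-31 and Antagomir-SCR at 36, 48 or 72 h, nor in the average of the 3 times, in limma over all tested probe sets. At an unadjusted p under 0.05 there were 1, 0 and 4 of 13 at 36, 48 and 72 h and 2 in the average, where the background was 5%, 6.09%, 16.2% and 8.63% of all tested probe sets. The 4 at 72 h were probe sets of Spred1 and the brighter one of Spry2. By the brightest probe set of each gene there were 1, 0 and 2 of 9, and 1 in the average. By adjusted p, 0% of all tested probe sets were called at 36 h and at 48 h, 0.291% at 72 h and 0.00954% in the average. The count at 72 h was 61, and it ran from 3 without Antagomir-SCR replicate 3 of 72 h to 399 without Antagomir-31 replicate 4 of 72 h.

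For the phosphatases the intervals of the treatment differences rest only on the spread of these arrays, which may be technical. Dusp6 differed by -0.16 (95% interval -0.35 to 0.034) at 36 h, by -0.059 (-0.25 to 0.13) at 48 h and by -0.047 (-0.20 to 0.11) at 72 h. Dusp4 differed by 0.16 (-0.034 to 0.35), -0.043 (-0.24 to 0.15) and -0.084 (-0.24 to 0.074). Dusp5 and Dusp2 were at 0.072 (-0.071 to 0.21) and 0.029 (-0.072 to 0.13) at 72 h. Over the 6 phosphatases and the 3 times, no brightest probe set had an interval that reached beyond -0.35 or 0.354.

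Dusp1, the putative miR-31 target, was 0.066 (SE 0.054) higher with Antagomir-31 at 36 h and 0.11 (SE 0.054, limma adjusted p = 0.825) higher at 48 h, and 0.041 (SE 0.044) lower at 72 h. The 2 arrays of each treatment did not overlap at 36 and 48 h, which was the case for 29.1% and 32.8% of all tested probe sets. Its average over the 3 times was 0.045 (95% interval -0.019 to 0.11, adjusted p = 0.708).

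Spry2 differed by values below 0 with Antagomir-31 at 36 h (-0.14, SE 0.059, adjusted p = 0.984) and at 72 h (-0.12, SE 0.048, adjusted p = 0.26) by the values of its brighter probe set, and the arrays of the treatments did not overlap at either time. At 36 h 29.1% and at 72 h 22.5% of all tested probe sets did not overlap. The dimmer probe set gave -0.045 (SE 0.11) and -0.079 (SE 0.086). Spry1 was at -0.13 (SE 0.082, adjusted p = 0.489) at 72 h. None of these differences passed the test in limma.

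**Figure D3:**
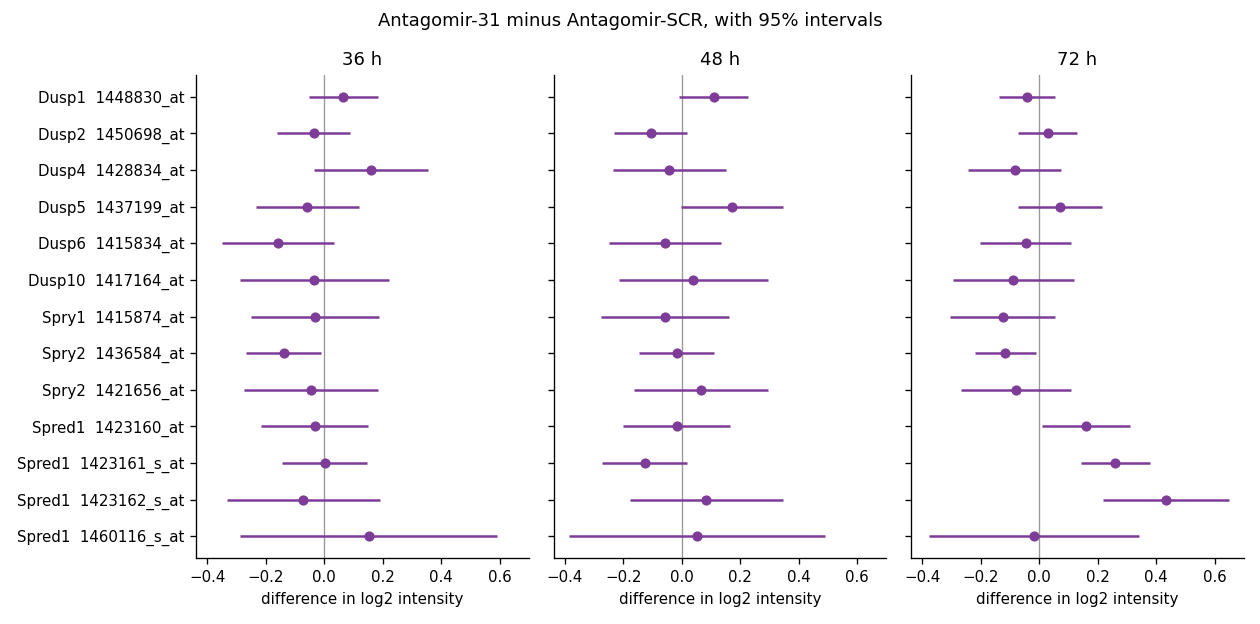
Antagomir-31 minus Antagomir-SCR in log2 intensity as deposited (x) for the 13 tested probe sets (y) at 36, 48 and 72 h, with 95% intervals of the limma fit before adjustment for multiple tests. Most intervals include 0, and the clearest exceptions are Spred1 1423161_s_at and 1423162_s_at at 72 h, at 0.26 and 0.43.

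Spred1 had the smallest adjusted p of the 9 genes between the treatments. The suffix _s_at marks probe sets whose probes can match several transcripts. At 72 h its probe set 1423161_s_at read 61.9, 59.0 and 64.0 with Antagomir-31 and 53.2, 47.6 and 53.6 with Antagomir-SCR. On the same arrays 1423162_s_at read 17.0, 13.6 and 15.6 with Antagomir-31 and 11.5, 10.6 and 12.0 with Antagomir-SCR. All 3 Antagomir-31 arrays were above all 3 Antagomir-SCR arrays in both, as for 9% of all tested probe sets. The differences were 0.26 (SE 0.055, limma adjusted p = 0.0674) and 0.43 (SE 0.098, adjusted p = 0.0787), and neither passed the threshold.

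The remaining probe sets of Spred1 were less clear. The brightest, 1423160_at, was at 0.16 (SE 0.068, adjusted p = 0.278) with overlapping arrays, and 1460116_s_at at -0.018 (SE 0.16, adjusted p = 0.971). The 4 untested probe sets also overlapped between the treatments at 72 h. At 72 h 1423162_s_at lay below the array medians on all 6 arrays and owed its place among the tested probe sets to 36 and 48 h, where it read between 46.7 and 58.6.

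The call on Spred1 depended on the processing. Among alternatives, 1423161_s_at was called where only probe sets with a mean log2 intensity of at least 6 were tested (adjusted p = 0.0261), with a trend of the variance on intensity (adjusted p = 0.0412) and after quantile normalization (0.27, adjusted p = 0.0481). The probe set 1423162_s_at was called with the trend (adjusted p = 0.0377). Calls over all probe sets also rose, from 61 as reported to 422 with the floor of 6 and 555 with the trend. Without single arrays the adjusted p reached 0.226 for the former and 0.261 for the latter. The summed T cell and Th1 markers of 72 h reached at most 23248 with Antagomir-31 and at least 23678 with Antagomir-SCR. The macrophage and monocyte markers summed to at least 179 with Antagomir-31 and at most 174 with Antagomir-SCR, and the CD8 T and NK cell markers to at most 80.6 and at least 82.0. Their part in the Spred1 values was not tested.

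**Figure D4:**
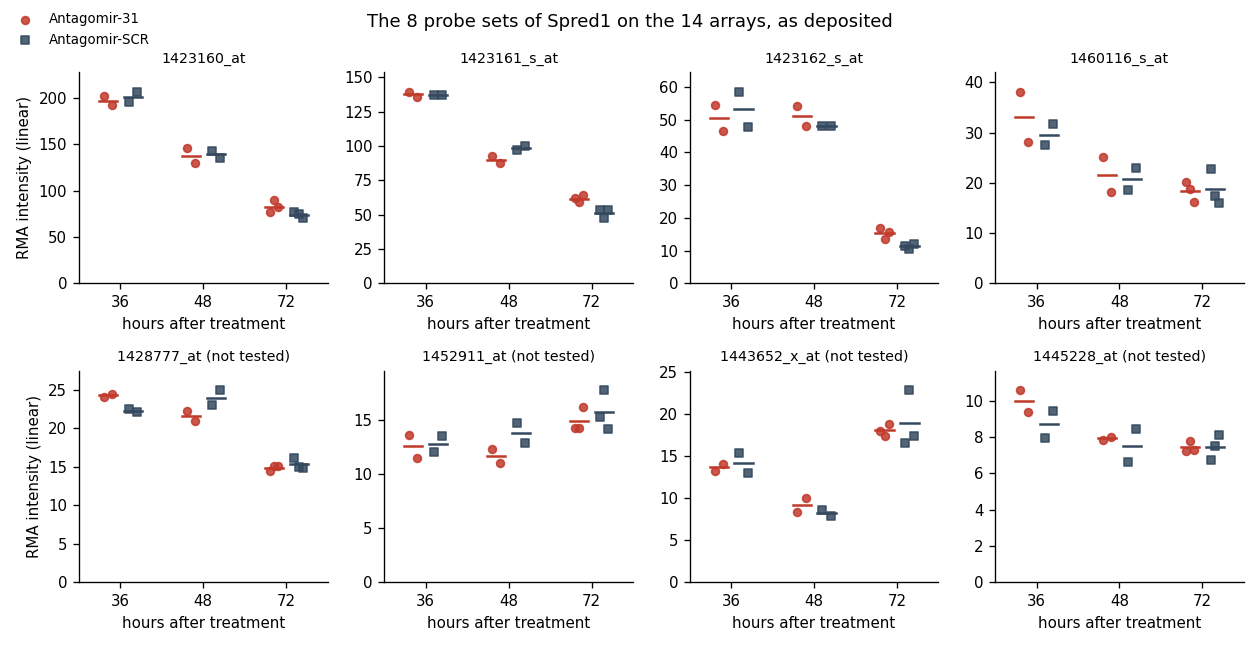
RMA intensity on linear axes from 0 (y) against hours after treatment (x) for the 8 probe sets of Spred1, 1 point per array and a bar at each group mean, with Antagomir-31 as circles and Antagomir-SCR as squares. At 72 h the circles lie above the squares for 1423161_s_at (59.0 to 64.0 against 47.6 to 53.6) and 1423162_s_at (13.6 to 17.0 against 10.6 to 12.0), and the treatments overlap in the other probe sets.

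Whether the treatment difference itself changed with time was tested as well, on arrays that these contrasts share with those above. No member was called for 72 h against 36 h or against 48 h, and 0% of all tested probe sets were. At an unadjusted p under 0.05 there were 2 of 13 in each, where the background was 10.1% and 9.09%. By the brightest probe set of each gene there were 0 of 9 in each. Spred1 1423161_s_at was at -0.13 (SE 0.067) at 48 h and 0.26 at 72 h, a difference of 0.39 (SE 0.086, limma adjusted p = 0.249). For 1423162_s_at the difference was 0.50 (SE 0.16, adjusted p = 0.33) against 36 h and 0.35 (SE 0.16, adjusted p = 0.534) against 48 h. For Dusp4 it was -0.24 (SE 0.11, adjusted p = 0.501) against 36 h.

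The genes around these inhibitors were looked at through 6 lists, each gene by its brightest probe set. Between 48 and 72 h the median of the 9 genes was -1.26. The median was -0.97 over 15 immediate early and other ERK-induced genes, of which 10 were called lower, 4 higher and 1 was not called. Over 14 other negative regulators of Ras and ERK it was -0.36, with 11 lower, 1 higher and 2 not called. Of 11 genes of the Ras-ERK cascade 6 were higher and 5 lower with a median of 0.18, near the background of 39.6% higher and 35.1% lower, and of 14 genes of the p38 and JNK cascades 5 were higher, 7 lower and 2 not called with a median of -0.13. As deposited, where all genes shift upwards, 8 and 2 of the Ras-ERK cascade and 8 and 2 of the p38 and JNK cascades were higher and lower, so that the direction within the cascades depended on the scaling. On that scale the other negative regulators had 7 lower, 4 higher and 3 not called with a median of -0.084, and the ERK-induced list had 10 lower and 5 higher with a median of -0.62. All of these counts stand beside 74.7% of all tested probe sets called after quantile normalization and 85.3% as deposited, and nothing particular to a list is read from them.

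Single genes stood out in these lists. The zinc finger factors Egr2, Egr1 and Egr3, classical products of ERK and calcium signals, changed by -6.04 (SE 0.068), -5.58 (SE 0.057) and -3.95 (SE 0.070) on the log2 scale, and Phlda1 by -2.20 (SE 0.044). The group means of Egr1 and Egr2 at 72 h, 30.4 to 42.3, were close to the array medians. Among the other negative regulators Errfi1, an inhibitor of receptor tyrosine kinases, was at -1.20 (SE 0.049) and Ptpn6, a tyrosine phosphatase that restrains antigen receptor signals, at -1.18 (SE 0.044). In the cascades Map2k3, a kinase of p38, fell by 1.29 (SE 0.039), while the Ras exchange factor Rasgrp1 rose by 0.93 (SE 0.044). All of these were called in limma on both scales. Other genes of the ERK-induced list, of which 5 were called higher and 10 lower as deposited, had higher group means at 72 h than at 48 h. Those of Myc were 991 with Antagomir-31 and 916 with Antagomir-SCR at 48 h, and 2289 and 2319 at 72 h. Those of Etv5 were 103 and 110 at 48 h, and 268 and 294 at 72 h.

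The other dual-specificity phosphatases did not share one direction. Of 6 tested out of 7 on the array, 3 were called lower, 1 higher and 2 were not called, with a median of -0.19. Of all tested probe sets 35.1% were called lower and 39.6% higher. Dusp16, a phosphatase of JNK and p38, fell by 1.54 (SE 0.048) and Dusp14 fell by 0.72 (SE 0.042), whereas Dusp7, like Dusp6 a cytoplasmic phosphatase of ERK, rose by 0.74 (SE 0.044). As deposited 4 of the 6 were higher and 2 lower, where 85.3% of all tested probe sets were called and 14.2% were called lower. Dusp7 (1.12), Dusp16 (-1.19) and Dusp14 (-0.39) kept their directions. Spred2 was the only tested gene of 4 other Sprouty family members, and it turned from -0.096 (SE 0.040, adjusted p = 0.0433) to 0.27 as deposited. Thus Dusp6 and Dusp7 moved apart, by values of opposite sign on both scales.

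**Figure D5:**
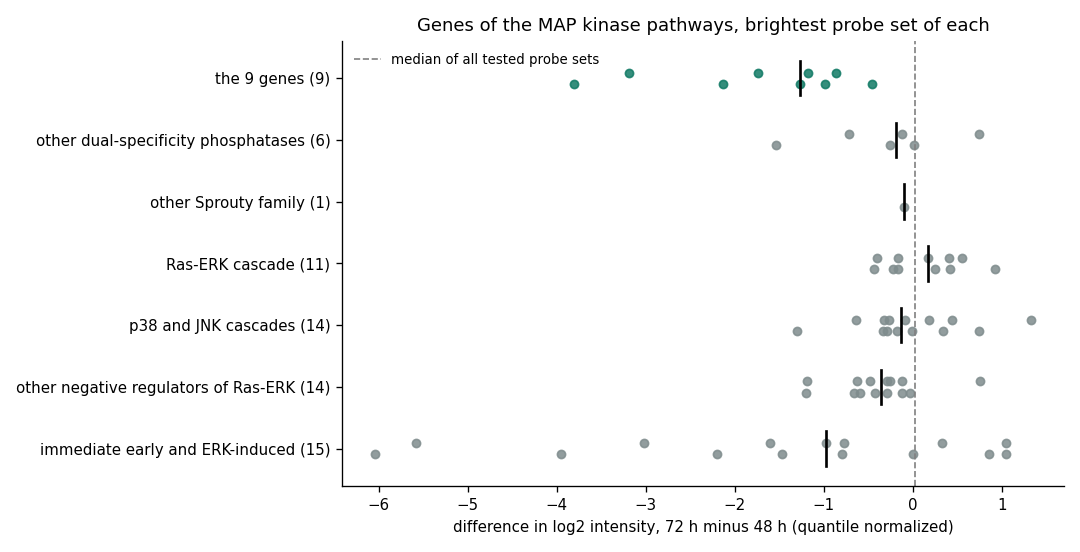
Difference in log2 intensity, 72 h minus 48 h, after quantile normalization (x) for the 9 genes and for 6 lists of related genes (y, number of tested genes in brackets), 1 point per gene, a black bar at each list median and a dashed line at the median of all tested probe sets, 0.025. All of the 9 genes lie below the dashed line, with a median of -1.26, and the ERK-induced genes spread from -6.04 upwards.

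With respect to treatment the lists gave little. No list gene was called at 36 h or at 48 h, and at 72 h Egr1 was the only one (0.48, SE 0.071, limma adjusted p = 0.0264). In that list 8 of 15 genes had an unadjusted p under 0.05 at 72 h, where the background was 16.2%, and their directions were mixed, with Phlda1 at 0.26 (adjusted p = 0.0625) and Ier3 at -0.29 (adjusted p = 0.0838). Dusp14 was at -0.20 (SE 0.053, adjusted p = 0.107) and Dusp7, also among the putative miR-31 targets, at 0.11 (SE 0.054, adjusted p = 0.318). Of the Ras-ERK cascade Ksr1, a scaffold of Raf and MEK, was at -0.20 (SE 0.051, adjusted p = 0.0941).

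The courses of the members over the 14 arrays were alike, Dusp10 apart. Pearson's r between quantile normalized log2 values of the brightest probe sets was between 0.946 and 0.997 among the other 8 genes and between 0.570 and 0.759 for Dusp10 with each of them. These are descriptions over arrays that share their times. Over all tested probe sets, the genes most like Dusp6 were Egr2 (r = 0.999) and Tespa1 (0.999), and those most like Dusp4 were Ifng (0.999) and the chemokine gene Ccl1 (0.998). For Dusp2 they were Hspa5 and Map2k3 (0.997 each), for Dusp5 Dnmt3a (0.996) and Cdc42ep3 (0.995) and for Dusp1 Rgs2 and Ccdc184 (0.996 each). For Spry1 they were Ccn1 and Nrp1 (0.997 each), for Spry2 Rgcc and Nrp1 (0.999 each) and for Spred1 Ctu2 (0.996) and Ube2w (0.995). Dusp10 had its best match in Ddx25 at 0.952.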

How the data were processed

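RNA of Th1 rep cells after Antagomir-31 or Antagomir-SCR was hybridised to 14 arrays. According to the labels and methods, the scans were handled in GCOS and RMA in the R package affy supplied the values (versions: not given in the sources used here). What the authors deposited is RMA intensity on a linear scale, and their close means within a time fit a normalization within each time. The number of arrays limits the precision.

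Probe sets were named from the platform annotation, which gave 1 symbol for 34945 (those used), several for 932 and none for 9160. The tests on log2 intensity were run in limma 3.58.1 under R 4.3.3 (lmFit on the 6 groups of treatment and time, contrasts, eBayes), over the 20967 probe sets in the brightest 60% by mean log2 over the 14 arrays, and p-values were adjusted by Benjamini-Hochberg over all of them (8 contrasts, threshold 0.05). Treatment contrasts used the values as deposited and time contrasts quantile normalized values. Intervals are 95% intervals of the fit. Named genes were the 9 members, of each list genes called or among the 3 with the smallest p, the defining cell type markers, the predicted targets among the phosphatases, and for likeness the 2 genes with the highest Pearson's r. The brightest probe set stood for a gene. The script was tested on simulated data. The replicate numbers of the labels gave no clear pairing of the samples, and no block was used. Alternatives comprised other filters, quantile normalization, median centring, a variance trend, one value per gene, no shared probe sets, fewer groups, replicate blocks and leaving out each array. The members and lists were chosen with earlier results of these data known. RefSeq tables of GRCm38.p6 gave the miRNA and promoter sequences. Of the lists, 6 genes of the Ras-ERK cascade and 1 each of the p38 and JNK cascades and of the other negative regulators were not analysed here.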

Additional observations from a re-analysis of the deposited data

Results flagged for a closer look

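Dusp4 lay without overlap between the treatments in opposite directions at different times. Both Antagomir-31 arrays were above both Antagomir-SCR arrays at 36 h (0.16 on the log2 scale) and below them at 48 h (-0.043). They lay wholly above for 14.5% of all tested probe sets at 36 h and wholly below for 18.5% at 48 h. The difference between these times was not tested.

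For Spred1 1423161_s_at the Antagomir-31 arrays were all below the Antagomir-SCR arrays at 48 h (-0.13) and all above them at 72 h (0.26). The former was the case for 18.5% of all tested probe sets at 48 h and the latter for 9% at 72 h. The test of the difference between these times gave 0.39 (SE 0.086, limma adjusted p = 0.249 over all tested probe sets).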

How the results depend on the processing

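No member was called for treatment at 36 h, at 48 h, in the average of the times or in either contrast of the treatment difference between times under any of the 22 or 23 alternatives. At 72 h the count of called members was 0 in limma as reported, 1 with a mean log2 intensity of at least 6, 2 with a variance trend and 1 after quantile normalization, each time a probe set of Spred1; it was 0 to 0 without single arrays. For time the count was 6 to 11 against 9 as reported for 48 h minus 36 h (7 to 9 without single arrays) and 9 to 17 against 13 for 72 h minus 48 h (13 to 13 without single arrays). The 1 reversed value was Spry2 1421656_at for 72 h minus 48 h, 0.090 as deposited. Of the single time values, 14 lost and 1 gained its call and 7 uncalled ones changed sign, and of the treatment values 4 gained a call and 63 uncalled ones changed sign.

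Over all tested probe sets the count of calls moved by over 1.5 times. At 72 h it was 61 as reported, 3 to 399 without single arrays and 5 to 555 under the others, 555 being that of the variance trend. It was 2 against 0 to 13 in the average, 0 against up to 2 and 27 at 36 and 48 h, 0 against up to 22 and 18 for the contrasts between times, 9129 against 4695 to 15032 for 48 h minus 36 h and 15657 against 8402 to 23315 for 72 h minus 48 h. Some alternatives used fewer groups, genes or probe sets, while the variance trend used all of them. Their part in these counts was not tested. Samples of the same number deviated together by correlations of only 0.046 at 36 h, -0.15 at 48 h and -0.0018, -0.012 and 0.14 at 72 h. The Antagomir-31 arrays that correlated best with their own number were both at 36 h, neither at 48 h and 1 of 3 at 72 h. With 2 arrays per group, 36 and 48 h give only 1 value each. These correlations therefore do not show a pairing by number and cannot exclude it. With a replicate block at 72 h 0 members and 14 probe sets were called, and Spred1 1423161_s_at and 1423162_s_at had adjusted p of 0.106 and 0.0633.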
